A study of Homo sapiens with 6 samples.

Results

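The 10 aldehyde dehydrogenase genes described here come from arrays of NCI-H292 cells, an established line from a human lung carcinoma. The genes were listed by name, and every probe set annotated to 1 of them alone was taken, which gave 19 probe sets. The array named 19775 genes in this way. The CT45A1 overexpression group carries, by stable transfection, a CT45A1-Venus construct, and the CT45A1 negative group carries the vector with Venus, a fluorescent protein, so Venus is common to both. CT45A1 is a cancer/testis antigen, a kind of gene normally expressed mainly in testis and again in some tumours. Each group had 3 replicates on 1 array each, all grown in the same complete medium with serum. The labels do not say whether the transfected cells are 1 clone or a pool, nor whether each replicate was grown separately. The p-values therefore describe the array-to-array spread, which could be technical. Values are MAS5 signals as deposited, on a linear scale, and differences are log2 signal of the overexpressing cells minus log2 signal of the negative cells.

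Aldehyde dehydrogenases oxidise aldehydes to carboxylic acids with NAD or NADP as the electron acceptor. Members of the ALDH1A subfamily make retinoic acid from retinal, the mitochondrial enzymes clear acetaldehyde and intermediates of amino acid breakdown, and the ALDH3 enzymes act on fatty and aromatic aldehydes, including products of lipid peroxidation. High aldehyde dehydrogenase activity is widely used to enrich for stem-like cells in carcinomas, and in lung it is also part of the defence against inhaled aldehydes.

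The labelled groups were checked with the 2 probe sets annotated to CT45 genes, each shared by 9 of them. The first, 1567912_s_at, gave 518, 700.1 and 445 in overexpressing cells, against 23.1, 15.8 and 1.95 in negative cells. All 6 listed epithelial genes were bright enough to test, and no probe set of the fibroblast or leukocyte markers was. Of the 9 epithelial probe sets tested 1 passed, that of KRT18, a keratin of simple epithelia, at 201596_x_at, which was lower with CT45A1 by a difference of -0.25 (limma adjusted p = 0.0393). Over all probe sets tested 3.23% passed. CDH1 at 201131_s_at also lay lower on all overexpression arrays, at -0.11 (limma adjusted p = 0.335). The groups did not overlap at 2 of the 9, both lower, where 26.6% of all probe sets tested did not overlap. The other CDH1 probe set, 201130_s_at, was at 0.27 (limma adjusted p = 0.452). KRT19 at 201650_at was at 0.25 (limma adjusted p = 0.282). Of the 9 epithelial probe sets 4 lay above 0 and 5 below, where 55.5% of all probe sets tested lay above 0. After centring each array on its median 2 lay above and 7 below, where 34.0% of all probe sets lay above 0. The summed epithelial signal was 73874 to 75188 in overexpressing cells and 75460 to 82341 in negative cells. In it KRT18 alone averaged 23338 in overexpressing cells and 27836 in negative cells. The part of this summed signal in the results was not tested. Of the endothelial markers VWF was not tested, while CDH5 and PECAM1 were tested at 4 probe sets and none passed. The summed signal of that endothelial list was 653 to 707 in overexpressing cells and 437 to 577 in negative cells, and its part was not tested either. The ratio of 3' to 5' actin signal falls with better preserved or longer labelled RNA. It was 1.42 to 1.55 on the overexpression arrays and 1.64 to 1.91 on the negative ones, so it moved with the groups. The same ratio for GAPDH was 0.97 to 1.04 and 1.05 to 1.18. As neither overlapped between the groups, these 6 arrays cannot tell the ratio apart from CT45A1. A difference from a fit with the actin ratio describes that fit and is no corrected value. Values with the actin ratio added to the fit as a covariate are given where a member's call changed or its difference changed sign or moved by over 1.5 times.

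Of the 19 aldehyde dehydrogenase probe sets, 17 of 9 genes were tested, and 2 passed at an adjusted p under 0.05 in limma. ALDH1A3, which makes retinoic acid, fell at probe set 203180_at, and ALDH7A1, an enzyme of lysine breakdown, rose at probe set 208951_at. All 17 differences were smaller than 2-fold. Over all 27618 probe sets tested, 3.23% passed, 1.89% upward and 1.34% downward, and with 17 members a count of 1 in each direction is too small to set the family apart. After centring each array on its median, 0 members passed upward and 3 downward in limma (6 had an unadjusted p under 0.05), and the split over all probe sets was 387 upward and 2588 downward, against 522 and 370 as deposited. Centring moved every difference, in the members and in the lists below, by the same -0.14. An unadjusted p under 0.05 was reached by 5 of the 17, where 20.7% of all probe sets reached it. The median difference of the members was 0.11, against 0.03 for all probe sets tested, and after centring these were -0.037 and -0.11. Without overexpression replicate 2 or 3 the members' median was 0.0011 or -0.032. Between the groups 4 members did not overlap, 2 upward and 2 downward, where 26.6% of all probe sets tested did not overlap, 15.2% upward and 11.4% downward.

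**Figure D1:**
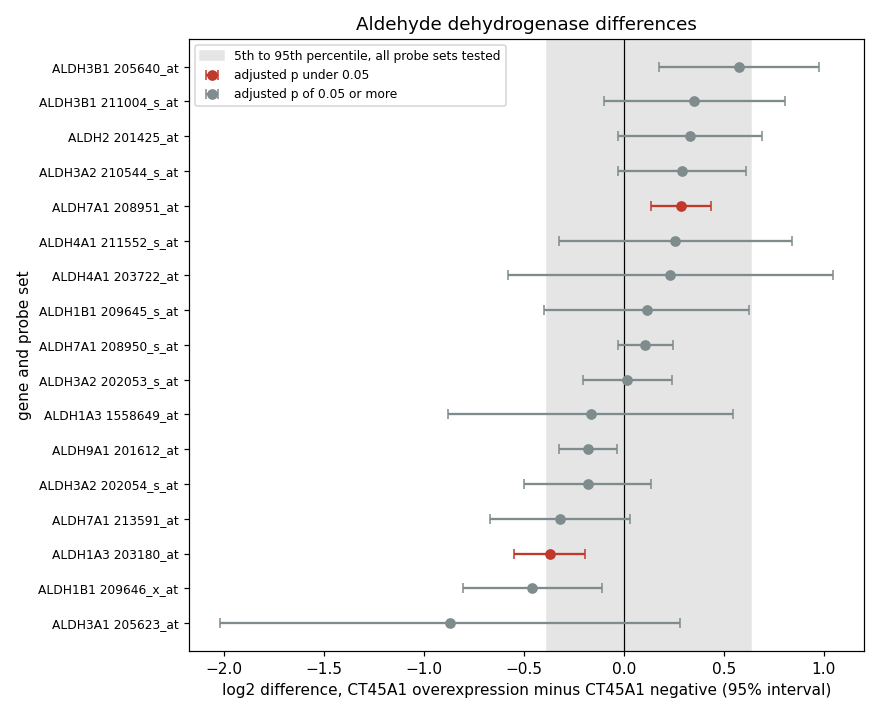
Log2 difference (x axis, CT45A1 overexpression minus CT45A1 negative) with limma's 95% interval for each of the 17 aldehyde dehydrogenase probe sets tested (rows), with 3 arrays per group. Red marks an adjusted p under 0.05, which ALDH1A3 203180_at and ALDH7A1 208951_at reached, and the grey band holds the 5th to 95th percentile of all probe sets tested, from -0.39 to 0.64.

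Of the enzymes that oxidise retinal, ALDH1A3 was lower with CT45A1 and ALDH1A1 could not be tested. ALDH1A2, which is not among the members, was also too dim to test. ALDH1A3 at 203180_at gave 11050.5, 11603 and 13083 in overexpressing cells, against 15599.9, 14050.4 and 16547.9 in negative cells. All 3 overexpression arrays lay below all 3 negative ones. The mean log2 signal was 13.54 ± 0.13 in overexpressing cells and 13.91 ± 0.12 in negative cells (SD, n = 3 each). The difference was -0.37 (SE 0.08, limma adjusted p = 0.0377), or 1.29-fold lower, with a 95% interval of -0.55 to -0.19. In bulk RNA such a difference cannot tell fewer expressing cells from less RNA per cell. In the fit that held the actin ratio the difference was -0.10 (adjusted p = 0.671). Over 18 alternative settings the difference kept its sign and the adjusted p ranged from 0.00641 to 0.671, passing in 9. Without overexpression replicate 1 or 2 the adjusted p was 0.129 or 0.139, and without negative replicate 1 or 3 it was 0.123 or 0.0671. It was 0.0888 after quantile normalization, 0.0730 without a filter on dim probe sets, 0.172 without a variance trend and 0.221 for the average of both ALDH1A3 probe sets, which differed by -0.27.

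The other ALDH1A3 probe set, 1558649_at, was near the array median, at 88.8, 70.8 and 86.2 in overexpressing cells, against 126, 79.3 and 76.7 in negative cells. Its groups overlapped, and the difference was -0.17 with a 95% interval of -0.88 to 0.54, which holds the value of the brighter probe set as well as 0. With the actin covariate it was -0.42 (adjusted p = 0.768). ALDH1A1, the related enzyme most often measured in stem cell assays, had 1 probe set, 212224_at, and it was too dim to test. Its signals were 68.6, 8.16 and 2.23 in overexpressing cells, against 6.99, 2.91 and 32.6 in negative cells, below the array median on all 6 arrays. At such signals the values carry no order between the groups.

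The promoters of ALDH1A3 and ALDH7A1 are shown because these are the members with a probe set past the threshold. They are the 250 bases before the annotated start in RefSeq, build GRCh38.p14, 5′ to 3′ on the strand of the gene, with ALDH1A3 at chr15:100879581-100879830 on the plus strand and ALDH7A1 at chr5:126595220-126595469 on the minus strand. Capitals mark every match, on either strand, to the GC box GGGCGG, the CCAAT box, the TATA box TATAAA, the AP-1 site TGACTCA, the antioxidant response element core TGACNNNGC, the retinoid response motif AGGTCA or the xenobiotic response element core GCGTG, with overlapping matches allowed.
ALDH1A3: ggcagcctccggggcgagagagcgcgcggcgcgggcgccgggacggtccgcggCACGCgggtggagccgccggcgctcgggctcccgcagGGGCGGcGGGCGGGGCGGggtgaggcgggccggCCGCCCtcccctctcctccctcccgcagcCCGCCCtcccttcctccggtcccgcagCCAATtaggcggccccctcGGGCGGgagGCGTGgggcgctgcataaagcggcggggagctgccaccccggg
ALDH7A1: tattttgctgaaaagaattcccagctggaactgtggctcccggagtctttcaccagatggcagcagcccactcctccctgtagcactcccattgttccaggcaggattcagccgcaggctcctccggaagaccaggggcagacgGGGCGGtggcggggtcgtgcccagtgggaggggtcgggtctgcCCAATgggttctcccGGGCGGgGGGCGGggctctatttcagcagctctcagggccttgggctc

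Both promoters held GC boxes and 1 CCAAT box within these 250 bases. ALDH1A3 had 6 GC boxes and a GC content of 82.4%, and ALDH7A1 had 3 and 64.0%, where the median of all 35116 promoters in the table was 58.0%. A GC box was found in 42.6% of all promoters of this length and a CCAAT box in 32%. ALDH1A3 also had 2 matches to the xenobiotic response element core, which 32.2% of promoters hold. Neither window had a match to the TATA box, the AP-1 site, the antioxidant response element core or the retinoid response motif, which 10.7%, 4.20%, 10.9% and 12.1% of promoters hold. Of the 10 genes 8 had a promoter in the table, and 7 of these had a GC box. A match describes letters only, and no binding was measured.

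ALDH7A1, also called antiquitin, oxidises a semialdehyde of lysine breakdown, and its 3 probe sets did not give the same value. At 208951_at the signals were 4803, 5008 and 5166.5 in overexpressing cells, against 4241, 3853 and 4191 in negative cells. Every overexpression array lay above every negative one. The mean log2 signal was 12.28 ± 0.05 in overexpressing cells and 11.998 ± 0.08 in negative cells (SD, n = 3 each), a difference of 0.29 (SE 0.07, limma adjusted p = 0.0474), or 1.22-fold higher. The call did not hold when any single array was left out, with adjusted p between 0.0542 and 0.163 and differences of 0.24 to 0.31. It was also lost after centring on the array median, where the difference was 0.14 (adjusted p = 0.260), without a filter on dim probe sets (adjusted p = 0.0825), without a variance trend (adjusted p = 0.172) and with the actin covariate, where it was 0.40 (adjusted p = 0.0903).

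The brightest ALDH7A1 probe set, 208950_s_at, gave 5997, 6143 and 6567 in overexpressing cells, against 5887, 5764 and 5695 in negative cells. These groups did not overlap either, but the difference was only 0.11 (SE 0.06, adjusted p = 0.344), and it was -0.037 after centring on the array median. The dimmest, 213591_at, ran the other way, at 245, 302 and 246 in overexpressing cells, against 348, 279.8 and 362 in negative cells. Its groups overlapped, and the difference was -0.32 (SE 0.16, adjusted p = 0.279), or -0.07 with the actin covariate (adjusted p = 0.923). With 1 probe set per gene, the brightest, ALDH7A1 therefore did not pass, and ALDH1A3 was the only member of 9 that did, where 3.84% of all genes passed.

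**Figure D2:**
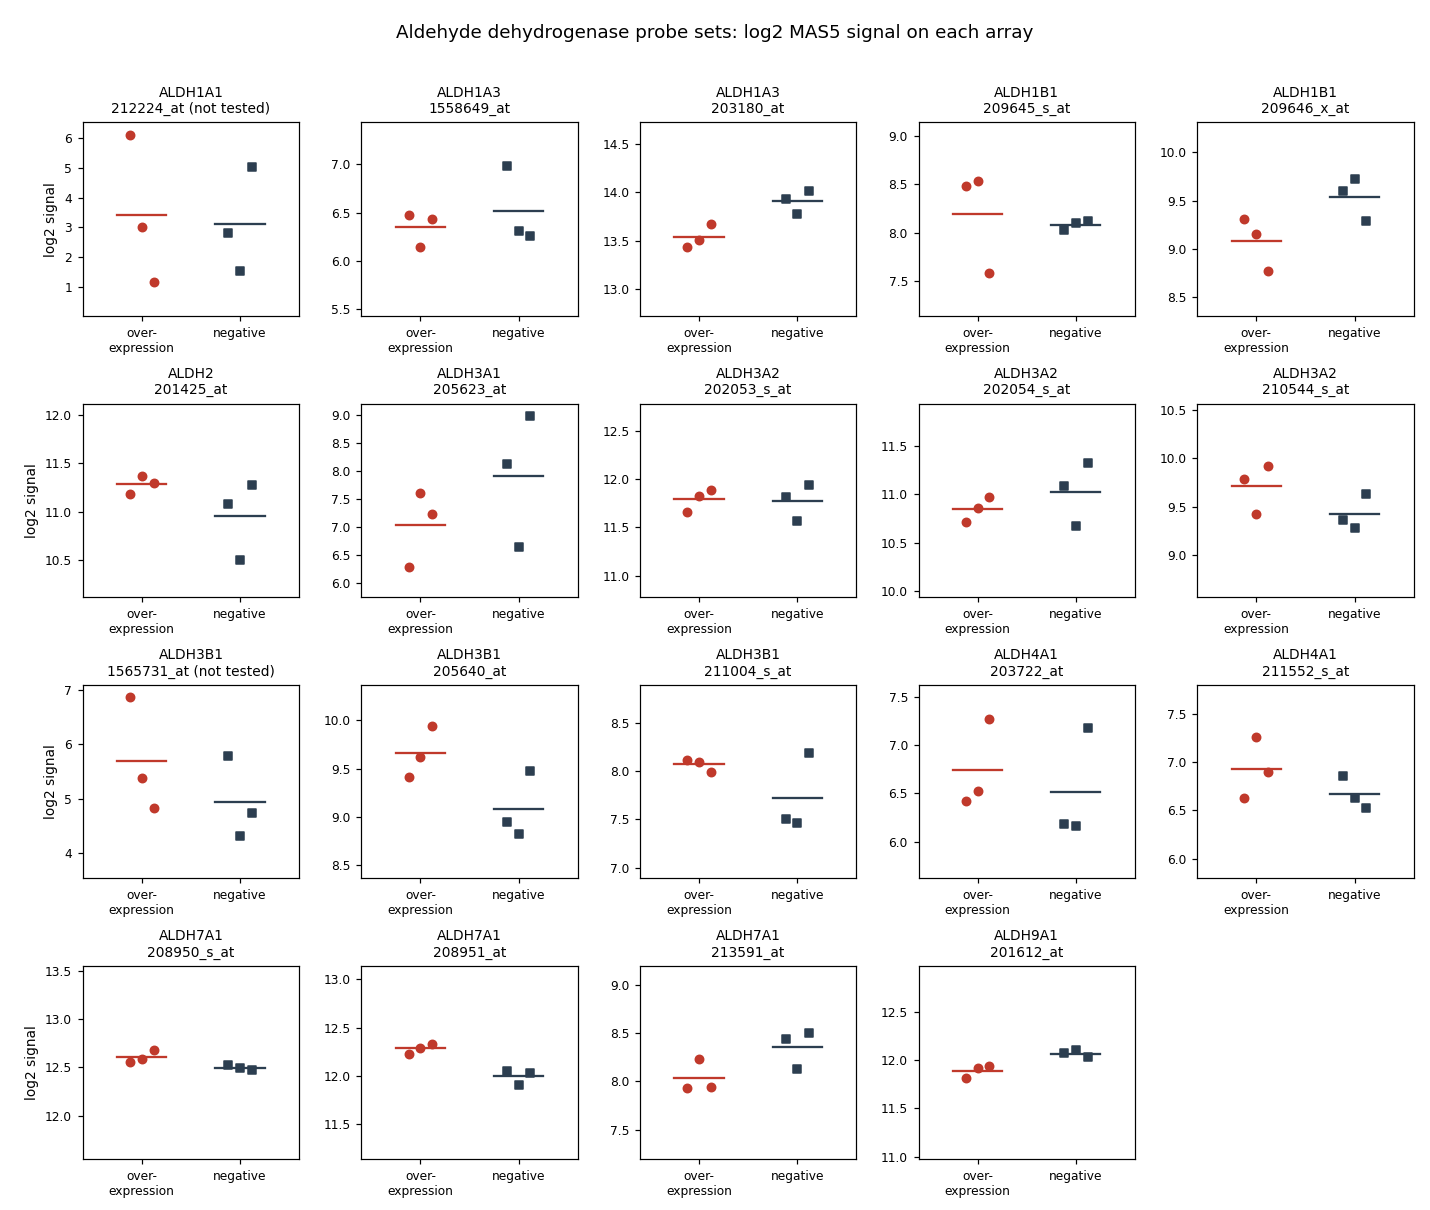
Log2 MAS5 signal (y axis, 1 panel per probe set, each with its own range) on the 3 CT45A1 overexpression arrays (red points, left) and the 3 CT45A1 negative arrays (dark squares, right), with group means as lines. The 203180_at panel of ALDH1A3 shows red points wholly below the dark ones, and the 208951_at panel of ALDH7A1 shows them wholly above. ALDH3A1 has the widest spread within a group among the probe sets tested.

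Of the mitochondrial enzymes that handle acetaldehyde, ALDH2 and ALDH1B1, no probe set passed. ALDH2, the main enzyme for acetaldehyde made from ethanol, gave 2322, 2657 and 2518 in overexpressing cells, against 2171, 1454 and 2478 in negative cells. The groups overlapped, and negative replicate 2 was the lowest array. The difference was 0.33 (SE 0.16, adjusted p = 0.279), with a 95% interval of -0.03 to 0.69. Without negative replicate 2 it was 0.11 (adjusted p = 0.612), the lowest value with 1 array left out, and without negative replicate 3 it was 0.49 (adjusted p = 0.0967), the highest. With the actin covariate it was 0.90 (adjusted p = 0.0533).

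ALDH1B1, a mitochondrial relative of ALDH2, had 2 probe sets on opposite sides of 0. At 209646_x_at the signals were 634, 572 and 437 in overexpressing cells, against 777, 844 and 625 in negative cells. Overexpression replicate 1 and negative replicate 3 overlapped by a small margin, and the difference was -0.46 (SE 0.16, adjusted p = 0.139). It was -0.60 after centring on the array median (adjusted p = 0.0326) and -1.04 with the actin covariate (adjusted p = 0.0251). Without overexpression replicate 3 it was -0.30 (adjusted p = 0.308), and the average of both ALDH1B1 probe sets differed by -0.17 (adjusted p = 0.625). At 209645_s_at the signals were 356, 369.9 and 191 in overexpressing cells, against 261, 274 and 277 in negative cells. Here overexpression replicate 3 alone was low, and the difference was 0.11 (SE 0.23, adjusted p = 0.822), turning to -0.031 after centring and -0.24 with the actin covariate. With 1 array left out it lay between -0.053 and 0.42, the highest being without overexpression replicate 3. The suffix _x_at marks probe sets that can match several transcripts.

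ALDH4A1, a mitochondrial enzyme of proline breakdown, was close to the array median. Its probe set 203722_at gave 85.7, 92.3 and 155 in overexpressing cells, against 72.6, 71.8 and 145 in negative cells, with replicate 3 the highest in both groups. Its probe set 211552_s_at gave 99.1, 153 and 119 in overexpressing cells, against 116, 99.1 and 92.3 in negative cells. Neither passed, at 0.23 (95% interval -0.58 to 1.04) and 0.26 (95% interval -0.33 to 0.84). With the actin covariate 203722_at was at 1.501 (adjusted p = 0.166), and without overexpression replicate 3 it was at -0.034 (adjusted p = 0.976).

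ALDH9A1, a cytosolic enzyme that oxidises aminoaldehydes on the way to GABA and carnitine, had little spread within groups. It gave 3591, 3859.98 and 3912 in overexpressing cells, against 4294, 4389.7 and 4179 in negative cells. The groups did not overlap, yet the difference of -0.18 (SE 0.07, adjusted p = 0.155) did not pass. It passed in 1 of 18 alternatives, centring on the array median, at -0.32 (adjusted p = 0.0262).

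ALDH3B1, a membrane-bound enzyme that acts on aldehydes from lipid peroxidation, had the largest positive difference of the 17. At 205640_at the signals were 681, 787 and 980.4 in overexpressing cells, against 493, 454 and 711 in negative cells. Only negative replicate 3 reached into the range of the overexpression arrays. The difference was 0.57 (SE 0.18, adjusted p = 0.114), and without negative replicate 3 it was 0.77 (adjusted p = 0.0286). Leaving out any other array gave 0.43 to 0.70, none of which passed. With the actin covariate it was 1.35 (adjusted p = 0.00601). At 211004_s_at the same array stood out, with 278, 274 and 255 in overexpressing cells, against 181, 176 and 291.5 in negative cells, and the difference was 0.35 (SE 0.20, adjusted p = 0.353). With the actin covariate it was 0.94 (adjusted p = 0.162). The third probe set, 1565731_at, exceeded the array median on 1 array and was not tested, at 117, 41.8 and 28.3 in overexpressing cells, against 55.04, 19.96 and 26.7 in negative cells.

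**Figure D3:**
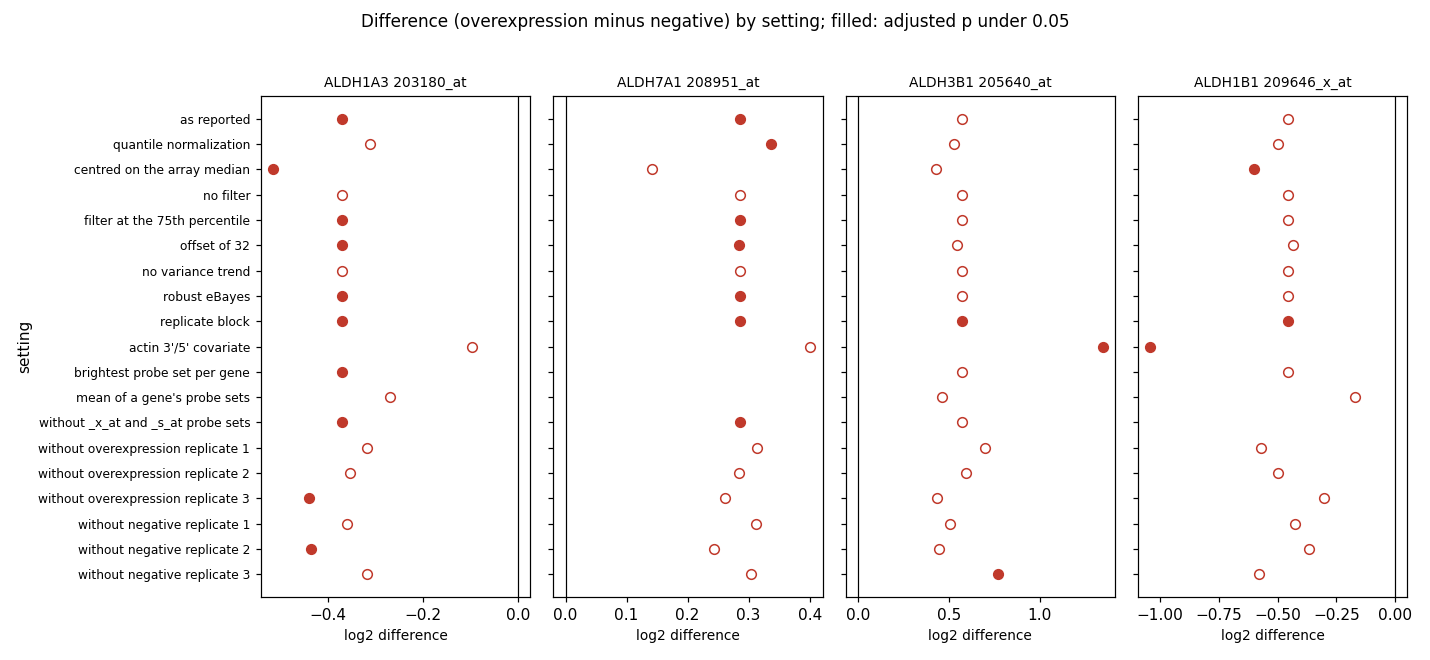
Log2 difference (x axis, CT45A1 overexpression minus CT45A1 negative, a separate range per panel) of 4 probe sets under each setting (rows), filled where the adjusted p was under 0.05. The row that averages the probe sets of a gene is drawn in the panel of the gene's brightest probe set, so ALDH7A1 208951_at has no point there or in the row for the brightest probe set. All points of a panel lie on 1 side of 0, and ALDH7A1 has no filled point among the rows that leave out an array.

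ALDH3A2, the fatty aldehyde dehydrogenase of the endoplasmic reticulum, had 3 probe sets and none passed. At 202053_s_at the signals were 3229.9, 3624 and 3792 in overexpressing cells, against 3591, 3037 and 3922 in negative cells, a difference of 0.02 with a 95% interval of -0.20 to 0.24. At 202054_s_at they were 1681, 1859 and 2007 in overexpressing cells, against 2177, 1635 and 2562 in negative cells, a difference of -0.18 (SE 0.14). At 210544_s_at they were 887, 687 and 972 in overexpressing cells, against 659, 621 and 791 in negative cells, a difference of 0.29 (SE 0.14). In all 3, negative replicate 2 was the lowest negative array and negative replicate 3 the highest, and the groups overlapped. With the actin covariate the differences were 0.38, 0.39 and 0.63 (adjusted p = 0.143, 0.225 and 0.189), which turns the sign of 202054_s_at.

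ALDH3A1, an enzyme of medium-chain and aromatic aldehydes that is abundant in cornea and induced in smokers' airways, had the most negative difference and the widest spread. It gave 77.6, 194 and 150.3 in overexpressing cells, against 278, 99.1 and 502 in negative cells. Negative replicate 2 lay within the overexpression range, while negative replicates 1 and 3 lay above it. The difference was -0.87 with an SE of 0.52 (adjusted p = 0.368), and it was 1.22 with the actin covariate (adjusted p = 0.307). Without negative replicate 2 it was -1.51 (adjusted p = 0.0865), without negative replicate 3 it was -0.34 (adjusted p = 0.722) and without overexpression replicate 1 it was -0.49 (adjusted p = 0.677).

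The same arrays were low and high in the AKR1C genes, aldo-keto reductases that reduce carbonyl compounds and steroids, picked here after their values were seen. AKR1C1 at 204151_x_at gave 3034, 4818 and 5822 in overexpressing cells, against 4767, 1805 and 7401 in negative cells. AKR1C3 at 209160_at gave 684, 761 and 1104 in overexpressing cells, against 933, 467 and 1495 in negative cells. In ALDH3A1, AKR1C1 and AKR1C3 alike, overexpression replicate 1 was the lowest of its group. Among the negative arrays replicate 2 was the lowest and replicate 3 the highest. ALDH2 201425_at and ALDH3A2 202053_s_at and 202054_s_at had this order too, so it was not particular to these genes. The share of all probe sets with this order was not counted. The group difference was 0.14 for AKR1C1 and -0.06 for AKR1C3 at these probe sets, against -0.87 for ALDH3A1. The AKR1C genes are closely related, and an _x_at probe set such as 204151_x_at may not tell them apart. The AKR1C3 probe set, 209160_at, has no such suffix. What differed between these arrays was not tested.

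**Figure D4:**
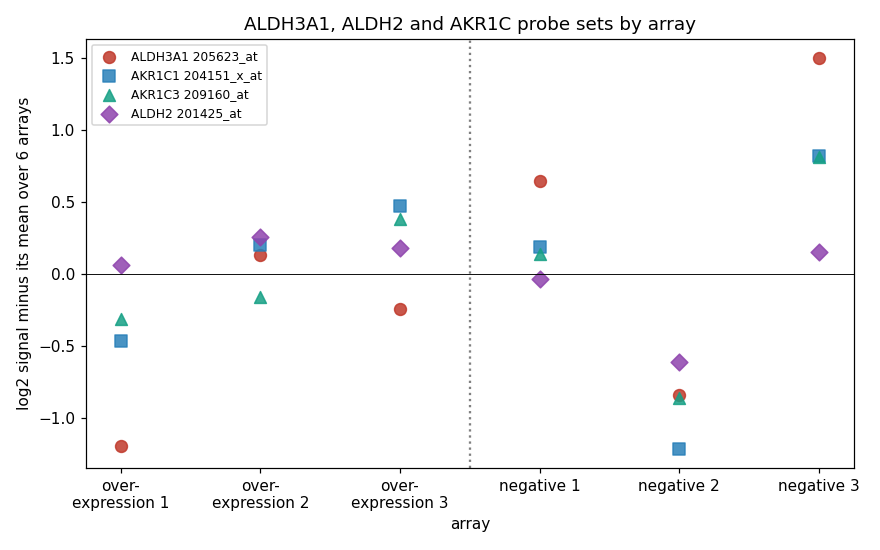
Log2 signal minus its own mean over the 6 arrays (y axis) for 1 probe set each of ALDH3A1, ALDH2, AKR1C1 and AKR1C3, by array (x axis, CT45A1 overexpression left, CT45A1 negative right). ALDH3A1, AKR1C1 and AKR1C3 are low on overexpression replicate 1 and negative replicate 2 and high on negative replicate 3. ALDH2 is clearly low only on negative replicate 2, but it too is lowest of its group on overexpression replicate 1 and highest of the negative arrays on replicate 3.

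Of the genes with several probe sets, 3 of 6 had probe sets on both sides of 0, namely ALDH1B1, ALDH3A2 and ALDH7A1, although after centring both ALDH1B1 probe sets lay below 0. ALDH1A3 was below 0 at both of its probe sets, and ALDH3B1 and ALDH4A1 were above 0 at all of theirs. Over the 17 tested, the standard error ran from 0.06 to 0.52, around a median of 0.14 for all probe sets.

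Related genes were described from lists written with earlier results of these data known. Of the other ALDH family genes, 12 probe sets of 6 genes were tested and 0 passed in limma, while 5 had an unadjusted p under 0.05. Over all probe sets tested 3.23% passed and 20.7% had such an unadjusted p. Their median difference was 0.18, with 11 above 0 and 1 below, where 55.5% of all probe sets tested lay above 0. After centring 7 lay above 0 and 5 below, where 34.0% of all probe sets did. ALDH16A1, a family member thought to lack enzyme activity in mammals, gave 284, 331 and 333 in overexpressing cells, against 130.2, 185 and 245 in negative cells, a difference of 0.80 (SE 0.22, adjusted p = 0.0785). ALDH3B2, a close relative of ALDH3B1, gave 130.2, 127.5 and 183 in overexpressing cells, against 53.9, 50.7 and 130.3 in negative cells, a difference of 1.03 (SE 0.38, adjusted p = 0.164). As in ALDH3B1, negative replicate 3 was the highest of the negative arrays in both genes.

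The retinoid list holds genes that make, bind, break down or sense the product of ALDH1A3. Of its 28 probe sets of 15 genes, 0 passed in limma and 6 had an unadjusted p under 0.05, where 20.7% of all probe sets did. Of the 28, 23 lay above 0 and 5 below, with a median of 0.20, where 55.5% of all probe sets lay above 0. After centring 16 lay above 0 and 12 below, where 34.0% of all probe sets lay above 0. RARG, a retinoic acid receptor, gave 275, 188 and 255 at 204189_at in overexpressing cells, against 159, 95.04 and 142 in negative cells, a difference of 0.87 (SE 0.24, adjusted p = 0.0820), and its other probe set tested differed by 0.60. CYP26B1, which breaks down retinoic acid, gave 794, 855 and 823 in overexpressing cells, against 674, 671 and 448 in negative cells, a difference of 0.49 (SE 0.15, adjusted p = 0.112).

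Among genes of alcohol and aldehyde reduction, 0 of 13 probe sets of 8 genes passed in limma, 2 had an unadjusted p under 0.05, and the median was 0.07. Over all probe sets tested 20.7% had such an unadjusted p. AKR7A2 at 214259_s_at differed by -0.24 (adjusted p = 0.133), and ADH5, the glutathione-dependent formaldehyde dehydrogenase, by -0.20 at 208847_s_at (adjusted p = 0.214). Among targets and regulators of NRF2, which controls several detoxifying enzymes, 1 of 19 probe sets of 10 genes fell and 0 rose, with a median of 0.00 and 3 unadjusted p under 0.05. Over all probe sets tested 1.34% fell and 1.89% rose at the adjusted threshold. Of the 19, 9 lay above 0 and 10 below, and after centring 1 above and 18 below. Of all probe sets 55.5% lay above 0, and 34.0% after centring. The probe set that fell was that of the quinone reductase NQO1, 201468_s_at, with 4423, 4852 and 4896 in overexpressing cells, against 6812, 5794 and 6848 in negative cells, a difference of -0.45 (SE 0.08, adjusted p = 0.0184). Its other probe sets differed by 0.11 and 0.02.

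**Figure D5:**
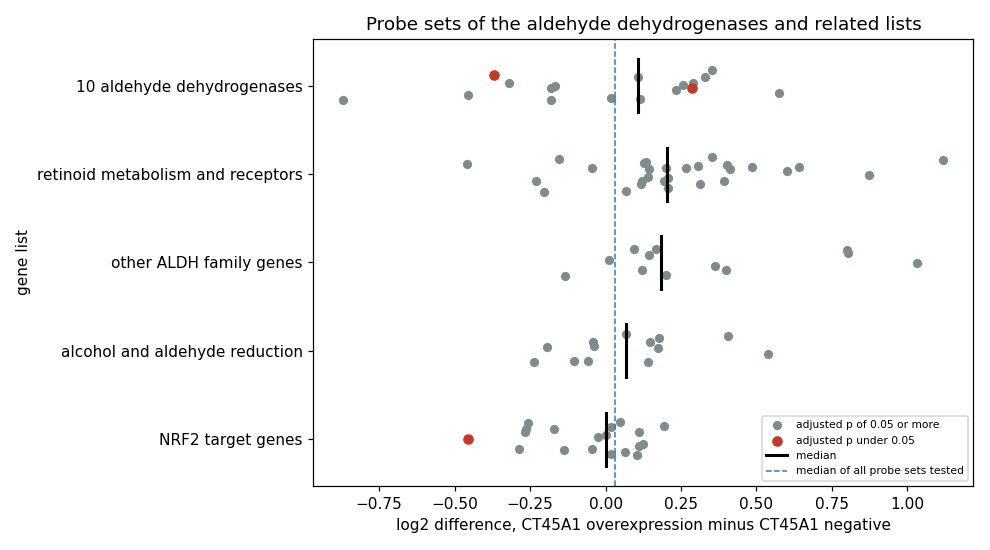
Log2 difference (x axis, CT45A1 overexpression minus CT45A1 negative) of every probe set tested in the 10 aldehyde dehydrogenases and in 4 related lists (rows, with points spread vertically for view), black bars at each list's median and a dashed line at the median of all probe sets tested, 0.03. Red points passed at an adjusted p under 0.05: 2 aldehyde dehydrogenases and 1 probe set of the NRF2 list.

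The probe sets whose log2 signal over the 6 arrays was most like that of ALDH1A3 203180_at, by Pearson's r among 22752 probe sets of other single genes, were those of NAA15 (r = 0.999), POGLUT1 (r = 0.996) and SLIRP (r = 0.994). For ALDH7A1 208951_at they were DGUOK (r = 0.996), JDP2 (r = 0.996) and CSAD (r = 0.995). With 6 arrays that share 2 groups and 1 scaling, 202 and 187 probe sets exceeded an r of 0.95, so the order among them is a description only.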

How the data were processed

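Total RNA of 6 samples was labelled with a 3' expression array kit, per the labels' protocols. The authors deposited a MAS5 signal intensity for each of 54675 probe sets, for which the submitters' processing notes name MAS5 and affy. Versions and detection calls are not given in the sources used here. On every array the 2% trimmed mean was 500.1, and array medians were 79.2 to 83.3 in overexpressing cells and 72.6 to 75.6 in negative cells. Here the intensities were taken to log2 with no offset, 62 control probe sets were left out, and 27618 probe sets above the array median on at least 3 arrays were kept. Groups came from the sample titles. The difference was fitted with limma 3.58.1 in R 4.3.3 (1 mean per group, eBayes with a trend, two-sided, Benjamini-Hochberg adjustment over all kept probe sets). The number of arrays limits the precision. Probe sets were named by the platform annotation through current RefSeq symbols. The fit was tested on simulated arrays. Of probe sets changed 1.25-fold, 1.5-fold, 2-fold and 4-fold, 4%, 32%, 54% and 86% were recovered among 27618. In all 200 were changed, where 892 were called in the data, and of 94 simulated calls 6 were false. Both called members lie below the 1.5-fold step, at 1.29-fold and 1.22-fold. Members, lists and the naming rule (all members, and of each list those past the threshold or else the 2 with the smallest p) were chosen with earlier results of these data known. Alternatives changed the scaling, filter, offset, variance model, block, covariate, probe set summary and arrays used. Figures used Python 3.11.15 and matplotlib 3.10.9.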

Additional observations from a re-analysis of the deposited data

How the results depend on the processing

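Over 18 alternatives, the 17 members gave 275 values, of which 237 kept their direction and side of the threshold, 19 lost the call, 7 gained it and 12 changed sign. Only the 2 probe sets called as reported could lose a call, so all 19 are theirs. ALDH1A3 203180_at kept its call in 9 of 18 alternatives and ALDH7A1 208951_at in 6 of 16. The count of members past the threshold, 2 as reported, was 1 after quantile normalization and with the brightest probe set per gene, 4 with the replicate block (ALDH1A3, ALDH7A1, ALDH3B1 and ALDH1B1), and 0 with no filter, with no variance trend and with probe sets averaged per gene, where limma gave 5, 4 and 3 unadjusted p under 0.05. With the actin covariate the count was again 2, but of other probe sets, ALDH1B1 209646_x_at and ALDH3B1 205640_at. Leaving out 1 array gave 0 to 1. The number of members tested was 17 as reported, 19 with no filter and 9 with the brightest probe set or the average per gene. The count over all probe sets, 892 of 27618 as reported, was 2975 after centring, 4 with no variance trend and 156 to 1152 without 1 array. Other settings changed the number tested as well. The count was 486 of 54613 with no filter and 446 of 17216 with _x_at and _s_at probe sets left out. With the brightest probe set per gene it was 457 of 11895, or 3.84% against 3.23% as reported. With probe sets averaged per gene it was 338 of 11895. The cause was not tested. The members' median, 0.11, was 0.38 with the actin covariate and -0.17 with _x_at and _s_at probe sets left out, where 9 members were left. It was 0.018 with the brightest probe set per gene, -0.037 after centring, 0.0011 without overexpression replicate 2 and -0.032 without overexpression replicate 3. Centring moved the median of all differences by -0.14.

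Signs changed for ALDH1B1 209645_s_at (-0.031 after centring, -0.24 with the actin covariate, -0.053 to 0.42 without 1 array), ALDH3A1 (1.22 with the actin covariate), ALDH3A2 202053_s_at (-0.13 after centring, -0.084 to 0.10 without 1 array), ALDH3A2 202054_s_at (0.39 with the actin covariate), ALDH7A1 208950_s_at (-0.037 after centring), ALDH1A3 1558649_at (-0.29 to 0.065 without 1 array) and ALDH4A1 203722_at (-0.034 to 0.57 without 1 array). By their titles, same-numbered arrays of the groups share only a number. Their deviations from the group means correlated at -0.01 to 0.10, and 2 of 6 arrays correlated best with their own number. With 3 arrays per group these correlations cannot decide whether same-numbered arrays were handled together. With the replicate block 1189 probe sets passed. Signals near the array median, as in ALDH4A1, limit what can be seen.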

Other observations

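AKR7A2, an aldo-keto reductase that detoxifies aldehydes, had 2 probe sets whose groups separated in opposite directions. Of all probe sets tested 26.6% had groups that did not overlap. At 202139_at its signals were 1688, 1521 and 1368 in overexpressing cells, against 1361, 1321 and 1347 in negative cells. At 214259_s_at they were 1363, 1413 and 1539 in overexpressing cells, against 1699, 1636 and 1752 in negative cells. The margin at 202139_at was small, 1368 against 1361. Neither passed in limma, at differences of 0.18 and -0.24 (adjusted p = 0.298 and 0.133). Centring each array on its median moved both differences by -0.14. AKR7A2 202139_at was chosen after its values were seen.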
